A study of Mus musculus with 12 samples.

Results

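The genes described here are 9 germ cell and meiosis genes: Stra8, Dazl, Ddx4, Mael, Tdrd1, Sycp1, Sycp3, Rhox6 and Rhox9. Their probes were taken by name, as the gene named in the scanner files or the current symbol behind a probe's accession, with no threshold on a measured value. The 9 genes were, however, chosen with earlier results of these data known. All 9 were on the array, where 11 probes measured them, and they are 9 of the 19183 genes that were tested. All 11 probes were well above background on each of the 12 arrays, and none was saturated.

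The study used the mouse embryonic stem cell (ESC) line J1, grown in M15 medium while they carried the virus. A lentivirus delivered a short hairpin RNA, either 1 with no target (non-targeting, shNT) or 1 directed at Ino80 (shIno80), which encodes the motor subunit of the INO80 remodeller of chromatin. Total RNA was taken at day 2, day 4 or day 6, which gave 6 groups of 2 single-colour Agilent arrays, and both hairpins share the line, the medium and the viral delivery. The labels name 1 Ino80 hairpin agent and no second hairpin sequence, so an effect of that agent other than on Ino80 cannot be told apart from the knockdown. The series calls the 2 arrays of a group biological replicates but gives no account of the cultures; a p-value here therefore covers the scatter of these samples alone, some of it possibly technical.

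Germ cells arise early in the embryo and later enter meiosis, the division that makes eggs and sperm. Retinoic acid and the factor STRA8 bring cells into meiosis, SYCP1 and SYCP3 build the synaptonemal complex that holds paired chromosomes together, DAZL binds germ cell mRNAs, and DDX4, MAEL and TDRD1 work in the cytoplasmic granules where piRNAs silence transposons. RHOX6 and RHOX9 are homeobox proteins of the X-linked Rhox cluster, known from germ cells and from placenta. In ESCs and other cells outside the germ line many such genes are kept low by DNA methylation and by a repressor complex, PRC1.6, that holds the E-box binding pair MGA and MAX and the factor E2F6.

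The probes of the 3 genes below are shown because the results turn on these genes and because the bases read as an open frame without a stop; each was 60 bases long and was placed on mm7 per the file headers. The Rhox9 probe lay at chrX:32993222-32993281 on the minus strand. The Sycp3 probe was placed over chr10:88027463-88030553 on the plus strand and the second Tdrd1 probe over chr19:56781966-56782447 on the plus strand, spans of 3091 and 482 bases that are longer than the probes, as across an exon junction.
Rhox9: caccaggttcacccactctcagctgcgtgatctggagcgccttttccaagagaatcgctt
Sycp3: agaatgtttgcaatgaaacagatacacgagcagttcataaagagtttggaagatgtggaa
Tdrd1: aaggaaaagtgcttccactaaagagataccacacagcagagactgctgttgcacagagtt
The Rhox6 and Rhox9 probes were compared because the Rhox cluster holds similar genes. At most 20 of 60 bases were identical in any ungapped alignment of these 2 probes. The other placements were chr6:34870433-34870492 for Stra8, chr13:109754306-109754365 for Ddx4, chr1:166172164-166172223 for Mael, chr3:102647366-102648037 for Sycp1, chrX:32922020-32922079 for Rhox6, chr17:48427556-48427615 and chr17:48435590-48435736 for Dazl, and chr19:56785896-56785955 for the first Tdrd1 probe. No annotation of mm7 was used, so exon, intron and UTR positions are not given.

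Promoter sequence was set beside the values because Ddx4 and Tdrd1 followed each other across the 12 arrays (Pearson r = 0.989, a description over arrays that share groups and slides) while Stra8 and Sycp3 ran the other way by day 6. RefSeq windows of build GRCm38.p6 were held for 7 of the 9 genes. The 250 bases before the annotated start are printed 5′ to 3′ on the gene's strand for 4 of them, with matches to the E-box CACGTG and to GCGGGAA, a sequence bound by E2F6, in capitals. These are chr13:112652311-112652560 on the minus strand for Ddx4, chr19:56825959-56826208 on the plus strand for the first of 3 Tdrd1 windows, chr10:88459337-88459586 on the plus strand for Sycp3 and chr6:34920698-34920947 on the plus strand for Stra8.
Ddx4: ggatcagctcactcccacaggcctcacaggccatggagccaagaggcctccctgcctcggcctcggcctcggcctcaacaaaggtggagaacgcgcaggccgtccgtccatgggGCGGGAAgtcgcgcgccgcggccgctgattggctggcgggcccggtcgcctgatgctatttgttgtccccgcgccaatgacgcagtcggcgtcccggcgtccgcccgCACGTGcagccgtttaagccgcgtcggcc
Tdrd1: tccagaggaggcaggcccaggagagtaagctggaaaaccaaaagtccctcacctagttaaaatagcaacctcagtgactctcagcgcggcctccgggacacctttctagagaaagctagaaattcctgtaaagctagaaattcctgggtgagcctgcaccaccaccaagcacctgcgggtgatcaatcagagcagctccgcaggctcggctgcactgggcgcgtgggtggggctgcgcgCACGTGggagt
Sycp3: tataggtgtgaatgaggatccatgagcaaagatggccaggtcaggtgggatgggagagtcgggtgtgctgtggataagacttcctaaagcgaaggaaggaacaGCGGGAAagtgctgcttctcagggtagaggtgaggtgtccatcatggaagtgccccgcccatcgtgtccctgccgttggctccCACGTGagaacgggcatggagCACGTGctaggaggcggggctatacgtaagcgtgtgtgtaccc
Stra8: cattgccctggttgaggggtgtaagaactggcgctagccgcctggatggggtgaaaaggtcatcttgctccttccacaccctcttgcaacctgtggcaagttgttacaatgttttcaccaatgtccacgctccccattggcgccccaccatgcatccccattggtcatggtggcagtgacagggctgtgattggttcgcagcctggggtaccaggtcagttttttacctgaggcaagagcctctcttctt
The E-box letters were found in 5 of the 7 genes with a window. The first base of the match lay 29 bases before the start in Ddx4, 223 in Mael, 94 in Sycp1, 64 and 43 in Sycp3, and 11 or 77 in Tdrd1, where overlapping windows of its first and second annotated starts hold the same match. The windows of Stra8 and Dazl and the third Tdrd1 window held no match. Of all 32851 windows of 27025 genes, 6.021% held the E-box letters, and 9.981% of the 8356 windows in the top quartile of CpG count did. GCGGGAA was found in Ddx4, 136 bases before the start, and in Sycp3, 147 bases before it, against 3.817% of all windows and 9.849% of those richest in CpG. The shares are per window, whereas a gene was counted where any of its windows held a match, so they are not like measures. Both strands were searched and the 2 motifs did not overlap.

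CpG sites, where DNA methylation acts, numbered 31 in the Ddx4 window, 20 in Dazl, 18 in Mael, 17 in Sycp1, 12 in Sycp3 and 5 in Stra8. The 3 Tdrd1 windows held 11, 22 and 3. The median of all windows was 6, with quartiles of 2 and 16, so Stra8 was the gene among these 7 whose only window lay below that median. These matches and counts are descriptions of the letters. Of the 5 genes with an E-box in the window, Ddx4 and Tdrd1 rose, Mael rose slightly, Sycp3 fell and Sycp1 did not pass in the comparisons given further on. A part of the motif in these changes was not tested.

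**Figure D1:**
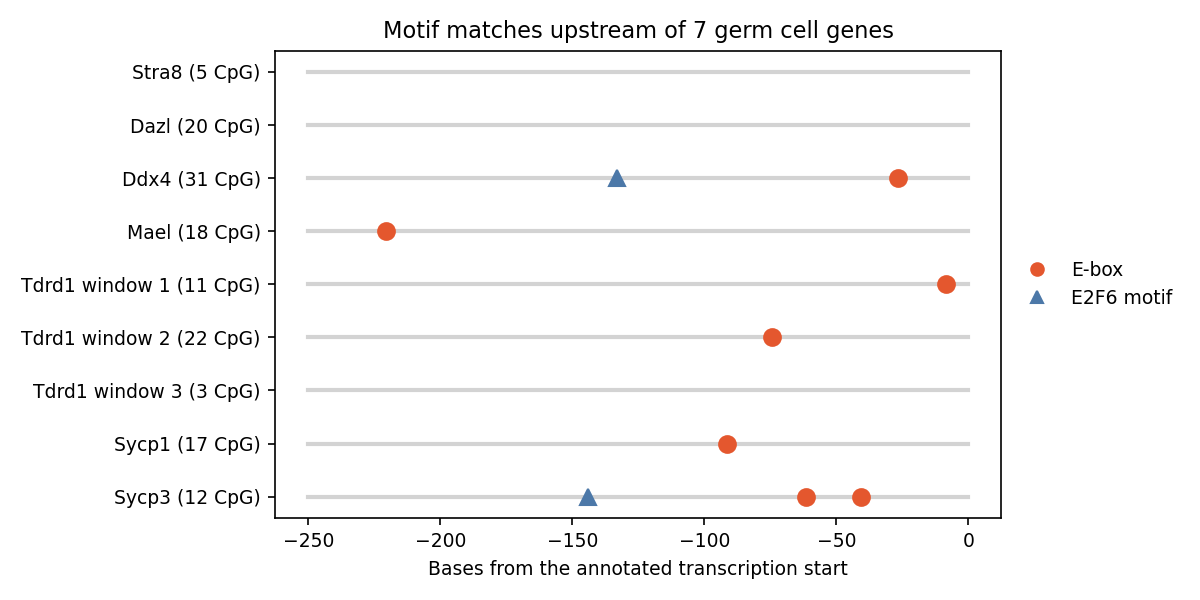
Motif matches in the 250 bases before the annotated start of the 7 genes with a RefSeq window, with the x axis in bases from the start. Circles are E-box matches, triangles are matches to the E2F6 sequence, and the CpG count of each window stands in its label; Stra8 and Dazl have neither mark.

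Ino80, the target, was read by 3 probes, and the brightest gave log2 signals, relative to the array's 75th percentile, of 1.89 to 2.72 on the shNT arrays and -0.29 to 0.85 on the shIno80 arrays over all days. It was lower with shIno80 at every day, by log2 changes of -1.99, -2.30 and -2.09 (SE 0.17 each, limma with Benjamini-Hochberg adjusted p = 0.000779, 2.55e-05 and 2.62e-05 at day 2, 4 and 6). At day 2 this did not pass with normexp background correction (adjusted p = 0.116) or in a fit of that slide alone (adjusted p = 0.100). The scanner files and the value table disagree on which sample 6 of the 12 arrays hold: the arrays at positions 2 and 3 of each of the 3 slides are exchanged between hairpins. Groups here follow the columns of the deposited value table. Under them the arrays of a group correlated at 0.991 to 0.994 and arrays of different groups at 0.987 or less, and these values and Ino80 were known when the record was chosen, so neither is independent evidence of it. With the scanner files' own attachments none of the 9 genes passed at any day, and none of the 19183 genes did, while 586, 166 and 374 genes had an unadjusted limma p under 0.05 at day 2, 4 and 6. The 4 arrays of a day shared a slide, so levels at different days also compare slides, and position on the slide cannot be told apart from the hairpin. Of the ESC markers, which check the labelled cell type, 6 of 6 were well above background in every group.

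Signals are given as log2 of the processed intensity relative to the 75th percentile of the same array, so 0 is the level of a probe at that percentile. Values of different probes are not set against each other, except to say which genes carry a summed signal. A gene was said to rise or fall where its Benjamini-Hochberg adjusted p from limma, over all genes, was under 0.05. In a bulk sample, fewer cells with a transcript and less transcript per cell cannot be told apart.

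Across the time course, 4 genes rose with the Ino80 hairpin from day 4 (Ddx4, Tdrd1, Rhox6 and Rhox9), 1 rose slightly at day 6 (Mael), 2 fell at day 6 (Stra8 and Sycp3), and Dazl and Sycp1 did not pass at any day. At day 2, 0 of 9 genes passed, against 12.5% of all genes tested, 6.29% higher and 6.21% lower. By unadjusted limma p, 2 of 9, Stra8 and Tdrd1, were under 0.05 at day 2. With replicate number as a block, 2 of 9 passed at day 2, Ddx4 and Tdrd1, both higher, where 3827 of all 19183 genes passed. At day 4, 4 of 9 passed, all higher, against 42.3% of all genes in either direction, 20.9% higher and 21.3% lower. At day 6, 7 of 9 passed, 5 higher and 2 lower, against 50.6% of all genes, 21% higher and 29.5% lower. The split of all calls depends on the scaling: 49.6% were higher at day 4 and 39.2% with median scaling, and 41.6% at day 6 and 62% on the deposited value table. The median log2 change of the 9 genes was 0.06, 0.30 and 0.47 at day 2, 4 and 6, beside 0.02, -0.05 and -0.14 over all genes. Since 42.3% and 50.6% of all genes also passed, the number of germ cell genes that changed does not by itself set them apart, and their values are given one by one.

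**Figure D2:**
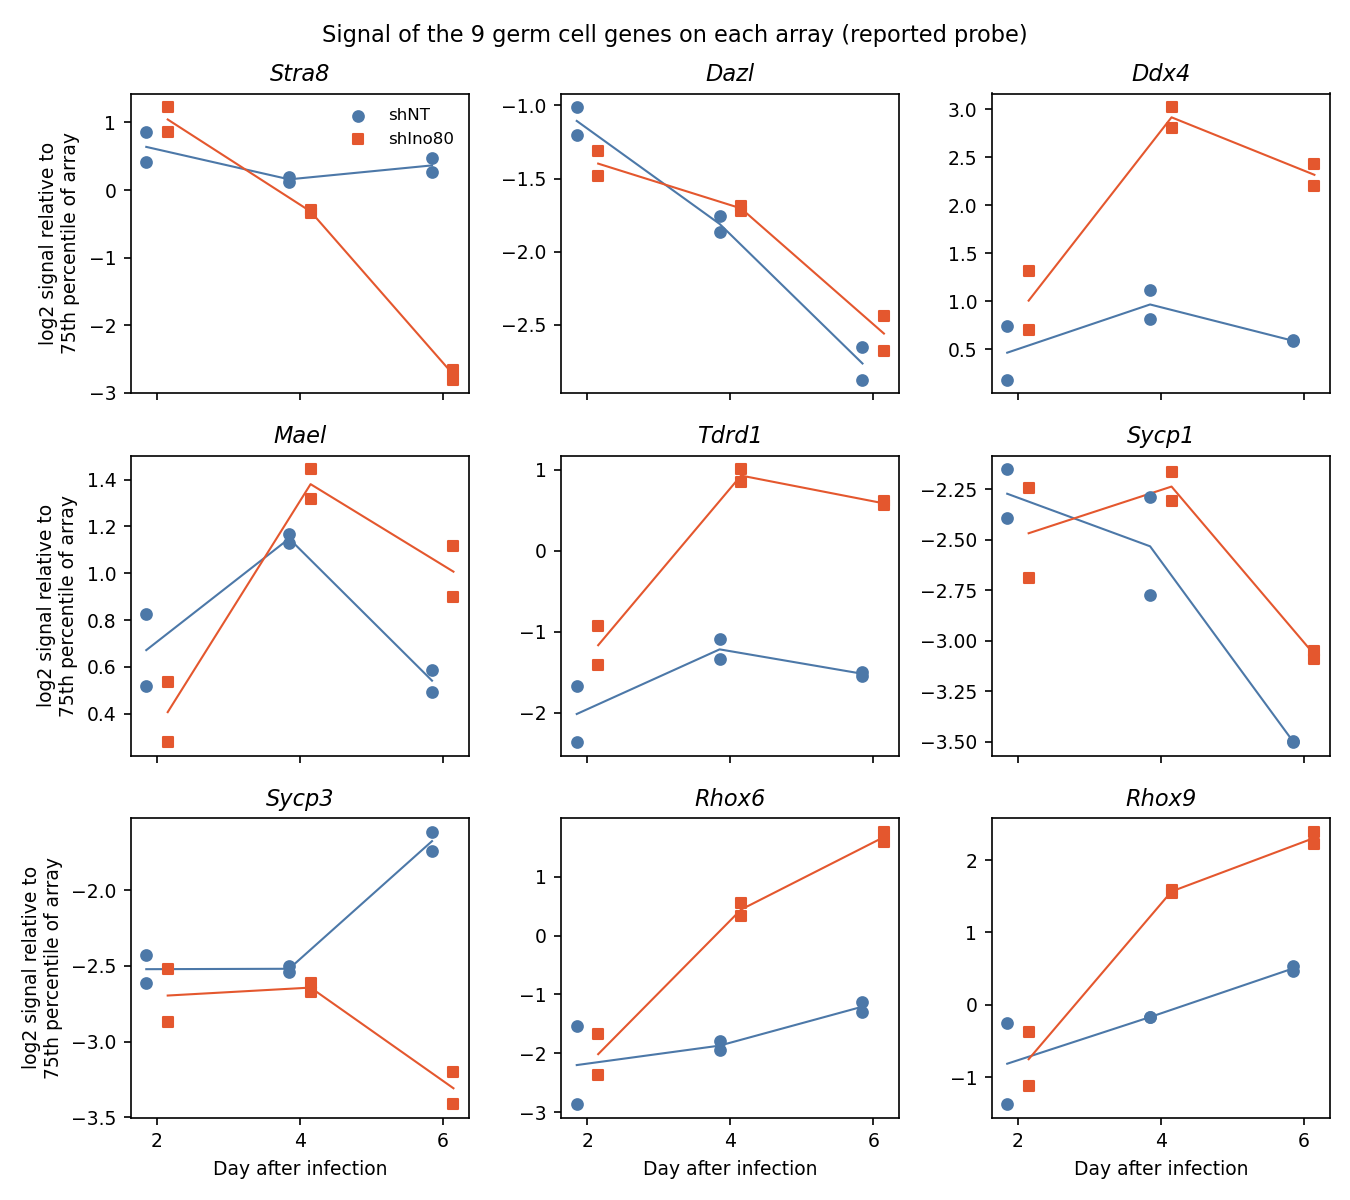
Signal of the 9 genes on each of the 12 arrays, as log2 relative to the array's 75th percentile, against day after infection. Circles are shNT arrays, squares shIno80 arrays, and lines join group means; the shIno80 arrays of Ddx4, Tdrd1, Rhox6 and Rhox9 lie above both shNT arrays at day 4 and day 6, and those of Stra8 and Sycp3 lie below them at day 6.

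**Figure D3:**
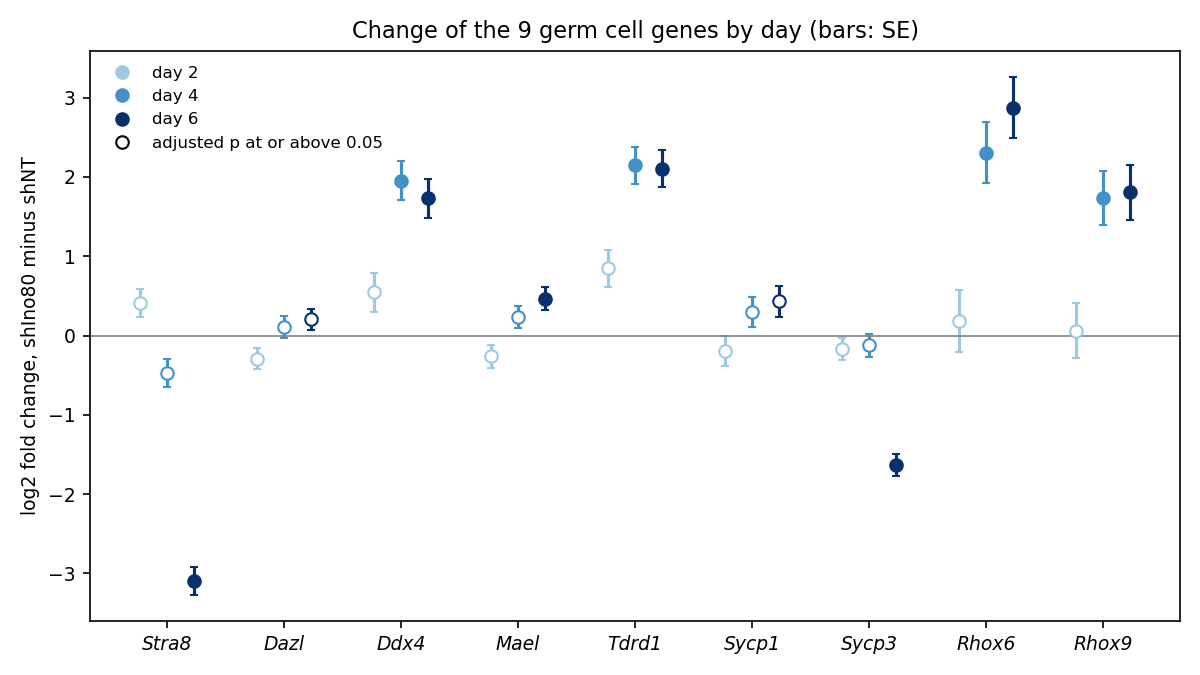
log2 fold change of shIno80 minus shNT for each of the 9 genes at day 2, 4 and 6, with bars of 1 SE from the limma fit over 12 arrays. Filled points had an adjusted p under 0.05; no point is filled at day 2, and the points of Stra8 and Sycp3 at day 6 are the filled ones below 0.

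Stra8 is the retinoic acid induced factor that germ cells need to enter meiosis. shNT arrays gave Stra8 log2 signals of 0.86 and 0.42 (day 2), 0.19 and 0.13 (day 4), and 0.26 and 0.47 (day 6). shIno80 arrays gave Stra8 values of 1.23 and 0.86 (day 2), -0.34 and -0.29 (day 4), and -2.66 and -2.80 (day 6). The shNT arrays stayed between 0.13 and 0.86 through the time course, while both shIno80 arrays of day 6 lay far under every other array. The day 6 log2 change was -3.10 ± 0.18 (SE, 2 arrays per group), or 8.55-fold lower (limma with Benjamini-Hochberg adjusted p = 6.07e-06). At day 4 the groups did not overlap but the change of -0.47 did not pass (limma, adjusted p = 0.0591), and it did pass with median scaling, at -0.62 (adjusted p = 0.0363), and without any 1 of the 4 arrays of day 2 (adjusted p = 0.0301 to 0.0476). The change at day 2 was 0.41 (limma, adjusted p = 0.186), with the second shIno80 array level with the first shNT array.

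The hairpin response of Stra8 itself differed between days. It was lower at day 4 than at day 2 by a log2 difference of -0.88 ± 0.25 (limma, adjusted p = 0.0480) and lower at day 6 than at day 4 by -2.62 (limma, adjusted p = 0.00243). The step from day 4 to day 6 also passed when any 1 array was left out, but not with normexp (-2.11, adjusted p = 0.759). The step from day 2 to day 4 no longer passed without any 1 array of day 4 or day 6, or without the second shNT or the first shIno80 array of day 2. It did not pass either with median scaling (adjusted p = 0.0624), quantile normalization (adjusted p = 0.0565), the value table (adjusted p = 0.0654), normexp (adjusted p = 0.611) or no filter on dim probes (adjusted p = 0.0952).

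Dazl encodes an RNA-binding protein that germ cells need for their translation programme. shNT arrays gave Dazl log2 signals of -1.20 and -1.01 (day 2), -1.87 and -1.75 (day 4), and -2.87 and -2.65 (day 6). shIno80 arrays gave Dazl values of -1.31 and -1.49 (day 2), -1.72 and -1.69 (day 4), and -2.44 and -2.68 (day 6). Both hairpins had their lowest values at day 6, and the groups overlapped at day 6 but not at day 2. The log2 changes were -0.29, 0.11 and 0.20 (SE 0.13) with limma adjusted p of 0.212, 0.570 and 0.239, so no change was detected at any day. The second Dazl probe read log2 signals of -2.82 and -3.22 (day 2), -3.84 and -3.62 (day 4), and -4.60 and -4.77 (day 6) on shNT arrays. On shIno80 arrays its values were -2.78 and -3.30 (day 2), -3.58 and -3.77 (day 4), and -4.39 and -4.51 (day 6). It too had its lowest values at day 6 under both hairpins, and its changes of -0.02, 0.05 and 0.23 did not pass.

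Ddx4, or Vasa, is the DEAD-box RNA helicase that marks germ cells across animals. shNT arrays gave Ddx4 log2 signals of 0.18 and 0.75 (day 2), 0.81 and 1.12 (day 4), and 0.59 and 0.59 (day 6). shIno80 arrays gave Ddx4 values of 0.70 and 1.31 (day 2), 2.81 and 3.02 (day 4), and 2.43 and 2.20 (day 6). The groups overlapped at day 2, and at both later days the lower shIno80 array lay above the higher shNT array by more than 1 log2 unit. Ddx4 rose by 1.95 ± 0.25 at day 4, or 3.87-fold (limma, adjusted p = 0.000384), and by 1.73 ± 0.25 at day 6, or 3.32-fold (limma, adjusted p = 0.000565). The change of 0.54 at day 2 did not pass (limma, adjusted p = 0.206).

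Mael encodes Maelstrom, a piRNA pathway protein of the same granules. shNT arrays gave Mael log2 signals of 0.52 and 0.83 (day 2), 1.13 and 1.17 (day 4), and 0.50 and 0.59 (day 6). shIno80 arrays gave Mael values of 0.28 and 0.53 (day 2), 1.32 and 1.44 (day 4), and 1.12 and 0.90 (day 6). Mael was highest at day 4 under both hairpins, and its groups did not overlap at day 4 or day 6. It rose by 0.47 ± 0.14 at day 6, or 1.38-fold (limma, adjusted p = 0.0256). That call was lost with median scaling (0.37, adjusted p = 0.0956), with normexp background correction (0.39, adjusted p = 0.180), with no filter on dim probes (adjusted p = 0.0505), and without the first or second shNT array or the first shIno80 array of day 6 (adjusted p = 0.112, 0.0626 and 0.149). The changes of -0.26 at day 2 and 0.23 at day 4 did not pass (limma, adjusted p = 0.294 and 0.234).

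Tdrd1 encodes a Tudor domain scaffold that binds PIWI proteins. shNT arrays gave Tdrd1 log2 signals of -2.36 and -1.67 (day 2), -1.34 and -1.10 (day 4), and -1.55 and -1.50 (day 6). shIno80 arrays gave Tdrd1 values of -1.41 and -0.93 (day 2), 0.85 and 1.00 (day 4), and 0.61 and 0.56 (day 6). The shIno80 arrays lay above the shNT arrays at all 3 days, and by about 2 log2 units at the later days. Tdrd1 rose by 2.15 ± 0.23 at day 4, or 4.43-fold (limma, adjusted p = 0.000184), and by 2.10 ± 0.23 at day 6, or 4.30-fold (limma, adjusted p = 0.000154). At day 2 the change of 0.85 did not pass (limma, adjusted p = 0.0512), and it did without the second shNT array of that day, at 1.19 (adjusted p = 0.0183).

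The second Tdrd1 probe, whose sequence is printed above, read log2 signals of -3.95 and -5.38 (day 2), -4.61 and -4.94 (day 4), and -5.07 and -5.25 (day 6) on shNT arrays. On shIno80 arrays its values were -5.18 and -4.62 (day 2), -3.62 and -3.42 (day 4), and -3.45 and -3.21 (day 6). Its groups overlapped at day 2, where those of the first probe did not, and were apart at day 4 and day 6, as with the first probe. In the limma fit over probes it rose by 1.25 at day 4 (adjusted p = 0.0375) and by 1.83 at day 6 (adjusted p = 0.00580), where 41.7% and 50% of all 28654 probes passed. At day 2 its change was -0.23 ± 0.41 (limma, adjusted p = 0.795), opposite in sign to the first probe, where 11.7% of all probes passed.

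Sycp1 encodes the transverse filament of the synaptonemal complex. shNT arrays gave Sycp1 log2 signals of -2.39 and -2.15 (day 2), -2.78 and -2.29 (day 4), and -3.50 and -3.50 (day 6). shIno80 arrays gave Sycp1 values of -2.69 and -2.25 (day 2), -2.31 and -2.17 (day 4), and -3.09 and -3.05 (day 6). The groups overlapped at day 2 and day 4 and were apart at day 6, where both hairpins had their lowest values. The log2 changes of -0.20, 0.30 and 0.43 (SE 0.19) did not pass (limma, adjusted p = 0.606, 0.262 and 0.0988); the last passed on the deposited value table (adjusted p = 0.0106), with a replicate block (adjusted p = 0.0265) and in a fit of each slide alone (adjusted p = 0.0230).

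Sycp3 encodes a protein of the lateral elements of the same complex. shNT arrays gave Sycp3 log2 signals of -2.61 and -2.43 (day 2), -2.54 and -2.50 (day 4), and -1.61 and -1.74 (day 6). shIno80 arrays gave Sycp3 values of -2.87 and -2.52 (day 2), -2.62 and -2.67 (day 4), and -3.20 and -3.41 (day 6). The 2 hairpins lay within the same narrow band until day 4 and parted at day 6, when the shNT arrays were the highest and the shIno80 arrays the lowest of the 12. Sycp3 fell by 1.63 on the log2 scale at day 6, or 3.10-fold (SE 0.14; limma, adjusted p = 3.93e-05). The changes of -0.17 and -0.12 at day 2 and day 4 did not pass (limma, adjusted p = 0.505 and 0.524), and the response at day 6 was below that at day 4 by -1.51 ± 0.20 (limma, adjusted p = 0.00875), a difference that did not pass with normexp (-0.58, adjusted p = 0.961). The day 6 change was -1.04 on the deposited value table, where it passed, and -0.89 with normexp, where it did not (adjusted p = 0.402).

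Rhox6 is an X-linked homeobox gene, also known as a placental homeobox gene. shNT arrays gave Rhox6 log2 signals of -2.86 and -1.53 (day 2), -1.95 and -1.79 (day 4), and -1.12 and -1.29 (day 6). shIno80 arrays gave Rhox6 values of -2.36 and -1.67 (day 2), 0.32 and 0.56 (day 4), and 1.58 and 1.76 (day 6). The day 2 arrays of each hairpin lay far apart and overlapped with the other hairpin, and from day 4 all shIno80 arrays stood above all shNT arrays of the time course. Rhox6 rose by 2.31 ± 0.39 at day 4, or 4.95-fold (limma, adjusted p = 0.00177), and by 2.88 ± 0.39 at day 6, or 7.34-fold (limma, adjusted p = 0.000432). The change at day 2 was 0.19 (limma, adjusted p = 0.837). With normexp the day 4 change was 1.63 and did not pass (adjusted p = 0.119).

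Rhox9 is another homeobox gene of the same cluster. shNT arrays gave Rhox9 log2 signals of -1.37 and -0.25 (day 2), -0.16 and -0.17 (day 4), and 0.53 and 0.47 (day 6). shIno80 arrays gave Rhox9 values of -1.12 and -0.38 (day 2), 1.55 and 1.58 (day 4), and 2.22 and 2.39 (day 6). The shNT arrays had their highest values at day 6, and the shIno80 arrays stood above them at day 4 and day 6. Rhox9 rose by 1.74 ± 0.34 at day 4, or 3.33-fold (limma, adjusted p = 0.00399), and by 1.80 ± 0.34 at day 6, or 3.49-fold (limma, adjusted p = 0.00268). The change at day 2 was 0.06 (limma, adjusted p = 0.944).

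The difference between the day 4 and day 2 responses was tested for each gene. It passed for 4 of 9, against 15.3% of all genes, 8.17% upward and 7.15% downward. It was upward for Ddx4 (1.41 ± 0.35, limma adjusted p = 0.0304), Tdrd1 (1.30 ± 0.33, adjusted p = 0.0347) and Rhox6 (2.12 ± 0.55, adjusted p = 0.0364), and downward for Stra8. Rhox9 had a difference of 1.67 ± 0.49 that did not pass (limma, adjusted p = 0.0536), and that did with quantile normalization (adjusted p = 0.0480), on the value table (adjusted p = 0.00480), with probes above background on all 12 arrays (adjusted p = 0.0307), with a replicate block (adjusted p = 0.00645), and without the first shNT or the second shIno80 array of day 2 (adjusted p = 0.00897 and 0.0382). These calls were fragile, since 0 of 9 passed without any 1 of the 4 arrays of day 4 or without the first shIno80 array of day 2, and 1 of 9 without the second shNT array of day 2 or any 1 array of day 6. Between day 4 and day 6 the response changed for 2 of 9, Stra8 and Sycp3, both downward, against 3.8% of all genes in either direction and 2.25% downward.

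Genes with the most similar pattern over the 12 arrays were listed by Pearson correlation among 15055 named genes, as a description with no test, since arrays share groups and slides. Ddx4 ran closest to Ppp1r3d (r = 0.996) and Zdhhc9 (0.994), and Tdrd1 ran close to Lrrfip1 (0.995). Rhox6 ran closest to Limk2 (r = 0.993) and Wnt7b (0.988), and Rhox9 to Sema3e (0.992) and Limk2 (0.989), so 1 gene was shared by the Rhox pair. Stra8 ran closest to Aard (r = 0.985) and Hpca (0.980), Mael to Id1 (0.993) and Xist (0.968), Dazl to Lpar1 (0.977) and Zfp536 (0.966), Sycp1 to Cad (0.962) and Ada (0.957), and Sycp3 to Hax1 (0.949) and Gtf2a1l (0.947). Among the 9 genes themselves, Rhox6 and Rhox9 correlated at 0.982, Dazl and Sycp1 at 0.869, and Stra8 and Rhox6 at -0.907.

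Other genes of the germ line did not share 1 direction with these 9. Of the 48 genes named from the lists that follow, 27 no longer passed at day 6 with normexp background correction and 1 more turned sign, while leaving out any 1 array of day 6 cost 6 or 7 of the 48 calls. The 27 were Tex101, Dppa3, Nanos3, Henmt1, Tdrd9, Piwil4, Piwil1, Spo11, Tex15, Hormad2, Dmc1, Hormad1, Rhox13, E2f6, Tfdp1, Rdh10, Cyp26a1, Aldh1a3, Rara, Crabp1, Sohlh2, Brdt, Taf7l, Gfra1, Ldhc, Dcn and Thy1. Of 14 tested early germ cell factors, 2 rose and 11 fell at day 6 (median log2 change -1.13), after 2 and 8 at day 4 and 0 and 4 at day 2. That was 92.9% called at day 6, against 50.6% of all genes, 21% higher and 29.5% lower. Over all genes 42.3% were called at day 4 and 12.5% at day 2, to be read beside each list below. All 14 were well above background on both arrays of every group, shNT included. Tex101, a germ cell surface protein, rose by 1.15 (SE 0.17; limma, adjusted p = 0.000597), and Dppa3, or Stella, by 0.89 (SE 0.27; limma, adjusted p = 0.0247). The Dppa3 call was lost without either shNT array or the second shIno80 array of day 6 (0.64 to 1.15 over all 12 such fits, adjusted p up to 0.153). Kit, the receptor for stem cell factor, fell by 2.70 (SE 0.34; limma, adjusted p = 0.000277), Nanos3, an RNA-binding protein of primordial germ cells, by 2.56 (SE 0.20; adjusted p = 2.30e-05), and Ifitm1 by 2.84 (SE 0.21; adjusted p = 1.95e-05).

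The piRNA pathway beyond Ddx4, Mael and Tdrd1 was split. Of 15 genes tested, 4 rose and 7 fell at day 6 (median 0.25), after 5 and 6 at day 4 and 1 and 2 at day 2. That was 73.3% called at day 6, against 50.6% of all genes. Tdrd7, a Tudor domain protein like Tdrd1, rose by 2.98, or 7.87-fold (SE 0.22; limma, adjusted p = 2.01e-05), and Henmt1, the methyltransferase of piRNA ends, by 1.53 (SE 0.41; limma, adjusted p = 0.0143). The Henmt1 call was lost without the first shNT array or either shIno80 array of day 6 (adjusted p up to 0.0650). Tdrd12 fell by 2.93, or 7.64-fold (SE 0.27; limma, adjusted p = 5.28e-05). Where a gene was not well above background on either array of a group, only a bound on its fold can be given, from the lowest signal well above background on each array. The PIWI genes Piwil4 and Piwil1 were at least 6.14-fold and 2.03-fold lower with shIno80, where they were not well above background (limma, adjusted p = 3.67e-05 and 0.000135). Tdrd9 was called higher (limma, adjusted p = 0.0403). It was well above background on 0 shNT arrays and only 1 shIno80 array of day 6, so no bound is given for it. The Tdrd9 call was lost in 7 of the 12 fits without 1 array, those without any 1 array of day 2, either shNT array of day 6 or the first shIno80 array of day 6 (0.89 to 1.87 over the 12, adjusted p up to 0.231), and with quantile normalization (adjusted p = 0.0590) or no filter on dim probes (adjusted p = 0.0709).

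Of 24 genes of meiotic chromosomes and recombination, 2 rose and 13 fell at day 6 (median -0.45), after 2 and 9 at day 4 and 2 and 2 at day 2. That was 62.5% called at day 6, against 50.6% of all genes. Spo11, which makes the meiotic double-strand breaks, rose by 1.23 (SE 0.23; limma, adjusted p = 0.00262) and Tex15 by 0.47 (SE 0.15; limma, adjusted p = 0.0282). The Tex15 call was lost without any 1 of the 4 arrays of day 6 (adjusted p up to 0.135) and with median scaling (adjusted p = 0.116), quantile normalization (adjusted p = 0.0591) or no filter on dim probes (adjusted p = 0.0548). Dmc1, the meiotic recombinase, fell by 2.39, or 5.24-fold (SE 0.21; limma, adjusted p = 4.68e-05), and Hormad1, a chromosome axis protein, by 2.37 (SE 0.18; limma, adjusted p = 1.91e-05), though a second Hormad1 probe gave -1.38 and did not pass (adjusted p = 0.0644). Hormad2 was at least 1.52-fold lower (limma, adjusted p = 0.000718), not well above background with shIno80, and did not pass on the value table (-0.47, adjusted p = 0.139). Of 5 tested oocyte genes 2 fell at day 6, Zp3 of the egg coat by 2.95 (SE 0.14; limma, adjusted p = 2.70e-06) and Sohlh2 by 1.11 (SE 0.29; adjusted p = 0.0123). Of 9 tested genes of spermatogonia and spermatids, 2 rose, Brdt (at least 2.64-fold, not above background in shNT; limma, adjusted p = 0.00351) and Taf7l (0.78 ± 0.20, adjusted p = 0.0128), and 2 fell, Ldhc (by 2.12, SE 0.23, adjusted p = 0.000123) and Gfra1 (at least 2.38-fold lower, adjusted p = 0.00165). Brdt was well above background on both arrays only in shIno80 groups, and Gfra1 only in shNT at day 6. Each thus entered the test only through groups where it was high, so its call is not taken as support. The oocyte and spermatogonia lists had 40% and 44.4% of genes called, below the 50.6% of all genes. The calls of Sohlh2 and Taf7l were each lost in 2 of the 12 fits without 1 array: Sohlh2 without the second shNT or the second shIno80 array of day 6 (adjusted p up to 0.0619), and Taf7l without the first shNT or the first shIno80 array of day 6 (adjusted p up to 0.0852).

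Other Rhox genes did not rise with Rhox6 and Rhox9 at day 6. Of 13 looked for, 6 were matched on the array and 4 were tested, of which 0 rose and 2 fell at day 6 by limma, and the same 0 and 2 had an unadjusted p under 0.05. That was 50% called, near the 50.6% of all genes. At day 4, 1 was higher, Rhox13 by 0.29, and 1 lower, Rhox5 by 1.84, and at day 2, 0 of 4 passed. The response moved upward from day 2 to day 4 for 1 of the 4. Rhox5, the founding member of the cluster, fell by 2.22, or 4.65-fold (SE 0.38; limma, adjusted p = 0.00156), and Rhox13 by 0.44 (SE 0.10; limma, adjusted p = 0.00507), which did not pass on the value table (-0.19, adjusted p = 0.255). Rhox genes include near-identical copies, and which copies these probes read was not tested.

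The known repressors of germ line genes were looked at by the same test. Of 22 tested, 3 were called higher and 9 lower at day 6 by the probe used for each gene (median -0.31), after 3 and 10 at day 4 and 1 and 1 at day 2. That was 54.5% called at day 6, near the 50.6% of all genes (21% higher, 29.5% lower), so the count does not set them apart. The 3 include E2f6, whose probes disagree, so 2 of them, Yaf2 and Tfdp1, are described as rising. L3mbtl2, a PRC1.6 subunit, fell by 1.39 (SE 0.12; limma, adjusted p = 3.97e-05), and Tfdp2, a partner of E2F proteins, by 1.21 (SE 0.10; limma, adjusted p = 3.48e-05). Yaf2, which binds the RING1 proteins of PRC1, rose by 1.63 (SE 0.14; limma, adjusted p = 3.24e-05), and Tfdp1 by 0.31 (SE 0.11; limma, adjusted p = 0.0387), with 0.28 by a second Tfdp1 probe that did not pass (adjusted p = 0.0549). The Tfdp1 call was lost in 5 of the 12 fits without 1 array, those without either shIno80 array of day 4, either shNT array of day 6 or the second shIno80 array of day 6 (adjusted p up to 0.218), with median scaling (adjusted p = 0.279), with no filter on dim probes (adjusted p = 0.0777) and in a fit of each slide alone (adjusted p = 0.0947). Probes of E2f6 gave opposite signs, 0.75 (limma, adjusted p = 0.0126) and -1.52 (adjusted p = 0.0109), and with the mean of both the change was -0.38, so no direction is given for it. Dnmt3a, a de novo DNA methyltransferase, fell by 1.21 by the probe used (SE 0.20; limma, adjusted p = 0.00120) and -1.10 by a second (adjusted p = 0.00112), but the remaining probe gave 0.50 and did not pass (adjusted p = 0.130).

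Stra8 being a retinoic acid target, the genes of that pathway were counted too. Of 17 tested, 7 rose and 6 fell at day 6 (median -0.04), after 4 and 4 at day 4 and 2 and 0 at day 2. That was 76.5% called at day 6, against 50.6% of all genes. Rdh10, which makes retinaldehyde, rose by 1.81 (SE 0.13; limma, adjusted p = 1.48e-05), Cyp26a1, which degrades retinoic acid and is itself induced by it, by 1.75 (SE 0.27; limma, adjusted p = 0.000799), and Aldh1a3, which makes retinoic acid, by 1.48 (SE 0.42; limma, adjusted p = 0.0180). The Aldh1a3 call was lost without the second shNT or the first shIno80 array of day 6 (adjusted p up to 0.0891). The receptors Rara and Rarg fell by 1.77 (SE 0.33; limma, adjusted p = 0.00226) and 1.46 (SE 0.21; adjusted p = 0.000561), and the binding protein Crabp1 by 1.15 (SE 0.26; adjusted p = 0.00682). A part of this pathway in the fall of Stra8 was not tested.

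**Figure D4:**
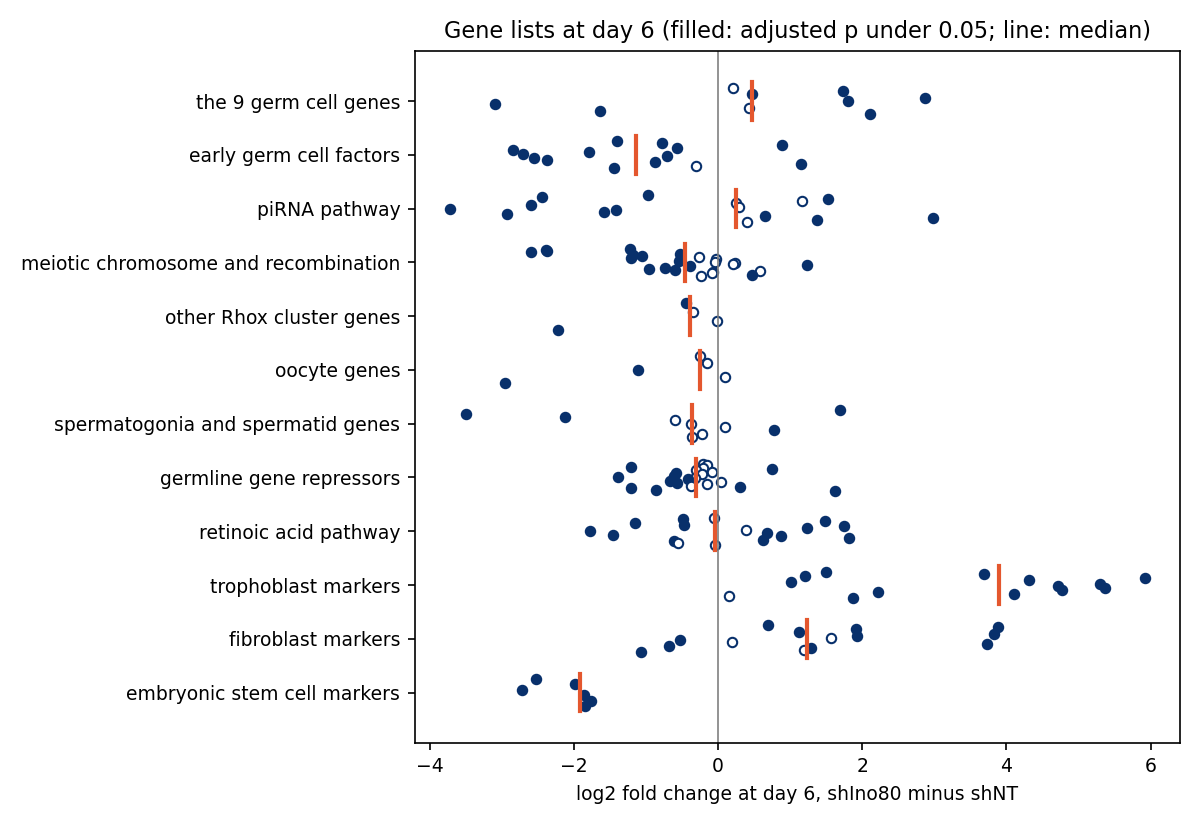
log2 fold change at day 6, shIno80 minus shNT, of each tested gene in 12 lists, with 1 point per gene and a vertical line at each list's median. Filled points had an adjusted p under 0.05; the 9 germ cell genes run from -3.10 to 2.88, trophoblast markers lie at or above 0 with a median of 3.89, and ESC markers lie below 0 with a median of -1.92.

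Markers of other cell types also changed with shIno80, where 6.29%, 20.9% and 21% of all genes were higher at day 2, 4 and 6. Of 14 tested trophoblast markers, 12 had risen by day 4 and 13 by day 6, after 2 by day 2, and 0 fell at any of these days by limma, also by unadjusted p under 0.05. Their summed signal, in multiples of the array's 75th percentile, was 6.42 to 7.94 in shNT and 9.34 to 11.9 in shIno80 at day 2, 8.24 to 10.2 against 148 to 160 at day 4, and 17.1 to 22.0 against 508 to 531 at day 6. This sum of linear signals is mostly that of the keratins Krt18, Krt8 and Krt7, so it says little of the other markers. Their mean log2 signals in shIno80 at day 6 were 8.16, 7.56 and 4.98, with 2.47 for Esx1. Plac1 was well above background on both arrays only in shIno80 at day 4 and day 6. It thus entered the test only through groups where it was high, so its call is not taken as support. Esx1 rose by 5.92 (SE 0.11; limma, adjusted p = 1.98e-07), Krt7 by 5.37 (SE 0.26; adjusted p = 2.86e-06) and Hand1 by 5.29 (SE 0.13; adjusted p = 4.90e-07) at day 6. At day 6 in shNT 12 of the 14 were already well above background on both arrays, against 14 with shIno80, while Elf5 and Tpbpa were not well above background on both arrays of any group.

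ESC markers went the other way, with 6 of 6 lower at day 4 and day 6 and 1 of 6 at day 2. Of all genes 6.21%, 21.3% and 29.5% were lower at day 2, 4 and 6. Their summed signal was 261 to 317 over the shNT arrays of all days, and 204 to 207, 61.6 to 69.8 and 68.7 to 82.3 in shIno80 at day 2, 4 and 6. Nanog fell by 2.72 (SE 0.30; limma, adjusted p = 0.000142), Esrrb by 2.53 (SE 0.23; adjusted p = 4.85e-05) and Klf4 by 1.98 (SE 0.16; adjusted p = 3.02e-05) at day 6. Of 14 tested fibroblast markers, 8 rose and 3 fell at day 6, against 21% and 29.5% of all genes. Among the 14, Lum was well above background on both arrays only in shIno80 at day 4 and day 6, and Twist2 only in shIno80 at day 6. Each entered the test only through groups where it was high, so neither is taken as support. Col1a1 was up by 3.88 (SE 0.13; limma, adjusted p = 9.85e-07), Dcn by 3.82 (SE 0.34; adjusted p = 4.70e-05) and S100a4 by 3.73 (SE 0.25; adjusted p = 1.24e-05). Vim fell by 1.07 (SE 0.12; limma, adjusted p = 0.000131), Thy1 by 0.68 (SE 0.16; adjusted p = 0.00798) and Pdgfra by 0.53 (SE 0.16; adjusted p = 0.0226), the last with the opposite sign under normexp, at 0.12. The Thy1 call was lost on the value table (adjusted p = 0.0698), and that of Pdgfra there (adjusted p = 0.515), with quantile normalization (adjusted p = 0.151), in a fit of each slide alone (adjusted p = 0.0766), and without the second shNT or either shIno80 array of day 6 (adjusted p up to 0.148). The summed fibroblast signal was 65.0 to 67.5 in shNT and 54.2 to 57.3 in shIno80 at day 2. It was 47.8 to 48.0 against 39.2 to 42.5 at day 4, and 34.7 to 36.6 against 44.4 to 45.4 at day 6. This sum is mostly that of Acta2 and Vim, so it says little of the other fibroblast markers. The mean log2 signal of Acta2 at day 6 was 4.299 in shNT and 4.998 in shIno80. That of Vim was 3.823 in shNT and 2.751 in shIno80. Postn and Fap were not well above background on both arrays of any group. Ddx4, Tdrd1, Rhox6 and Rhox9 were higher at the 2 days when the trophoblast markers were higher and the ESC markers lower, and Stra8 and Sycp3 were lower at the second of them. The part of these other cell types in the values of the 9 genes was not tested.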

How the data were processed

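RNA from 12 samples was hybridised to 12 single-colour arrays, 2 for each of 6 groups. The deposited scanner files give spot intensities read by Agilent's Feature Extraction software (9.5.3.1); per the file headers, its processed intensity is after background subtraction and spatial detrending on the array. Cy5 is the labels' dye, although only green columns are in the files. The deposited value table is on the log2 scale, with each column equal to 1 scanner file's mean spot intensity times 1 factor per array within a relative tolerance of 1e-06; it was used to tie arrays to samples and as an alternative. The origin of these factors is not stated in the labels or headers, and its column medians were 7.30, 7.22, 7.34 and 7.27 at day 2 (shNT, then shIno80), 7.26, 7.24, 7.32 and 7.36 at day 4, and 7.29, 7.23, 7.47 and 7.42 at day 6.

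Of 41174 probes, 125 were left out for spots marked as non-uniform or outlying, and 28654 were kept because in 1 group or more both arrays had them well above background. The analysed value was the log2 processed intensity less the 75th percentile of the array (an intensity of 1162 to 1643). On each array 61.85% to 69.15% of probes were well above background and at most 2 were saturated. Names came from the RefSeq table of GRCm38.p6 for 22944 probes by accession, 6664 by symbol and 3108 by older symbol, and 8458 kept the file's name; the 11 probes described here were named by accession. For each of the resulting 19183 genes the probe of highest mean signal was used.

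All arrays were fitted in limma 3.58.1 (R 4.3.3), with lmFit and eBayes, 1 mean per group, 6 residual degrees of freedom, and Benjamini-Hochberg adjustment over all genes at 0.05. The number of arrays limits the precision. The code was tested on simulated data. Genes of the lists were named by a rule: up to 3 in each direction with the largest day 6 change among those that passed. The 9 genes, the lists and the tests were chosen with earlier results of these data known. Alternatives were median scaling, quantile normalization, normexp on the mean and background signals with an offset of 50, the value table, other filters on dim probes, the mean of a gene's probes, a replicate block, each slide alone, the scanner files' attachments, and leaving out each array. For Tdrd1, 1 of the 2 genes of most similar pattern is not reported here.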

Additional observations from a re-analysis of the deposited data

Results flagged for a closer look

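The response to the Ino80 hairpin differed between days, by the interaction term of the limma fit, for 5 of the 9 genes at 1 step or both. Of all genes, 15.3% passed for the step from day 2 to day 4 and 3.8% for that from day 4 to day 6. From day 2 to day 4 the log2 response of Ddx4 moved up by 1.41, Tdrd1 by 1.30 and Rhox6 by 2.12, whereas Stra8 moved by -0.88. From day 4 to day 6 the response of Stra8 moved by -2.62 and that of Sycp3 by -1.51. The 2 latter differences still passed when any 1 of the 12 arrays was left out and not with normexp (adjusted p = 0.759 and 0.961), and the 4 former were lost when any 1 array of day 4 was left out. Each day was 1 slide, and an effect of the slide that is not additive cannot be told apart from the day.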

How the results depend on the processing

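The rises of Ddx4, Tdrd1 and Rhox9 at day 4 and day 6 and of Rhox6 at day 6, and the fall of Stra8 at day 6, kept their direction and passed under every alternative except the scanner files' attachments. Leaving out 1 array gave 0 to 1 genes higher at day 2, 4 to 4 higher and 0 to 1 lower at day 4, 4 to 5 higher and 2 to 2 lower at day 6, and 0 to 5 and 2 to 2 with a changed response from day 2 to 4 and from day 4 to 6. Median scaling gave 1 gene lower at day 4 (Stra8) and 2 with a changed response from day 2 to day 4. Normexp gave 1 lower at day 6 and 0 with a changed response at either step; the value table gave 2 higher at day 2 (Ddx4 and Tdrd1); no filter on dim probes gave 0 with a changed response from day 2 to day 4. Probes above background on all 12 arrays gave 1 higher at day 2 (Tdrd1), 1 lower at day 4 (Stra8) and 5 with a changed response from day 2 to day 4 (Rhox9 added), and each slide alone gave 1 lower at day 4 (Stra8) and 6 higher at day 6 (Sycp1 added). The value table also gave 6 higher at day 6 (Sycp1 added), and with it or quantile normalization Rhox9 replaced Stra8 among the 4 with a changed response from day 2 to day 4. The cause of these differences was not tested.

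Whether the replicate numbers pair the samples was not established. Deviations of same-numbered arrays under the 2 hairpins correlated over genes at 0.296, 0.117 and 0.083 at day 2, 4 and 6. The main fit did not pair them. With replicate number as a block, 2 genes were higher at day 2 (Ddx4 and Tdrd1), 1 was lower at day 4 (Stra8), 6 were higher at day 6 (Sycp1 added), 5 changed their response from day 2 to day 4 (Rhox9 added), and the count of all genes called was 3827, 9620 and 11094, against 2397, 8107 and 9700 without it; 1328 genes changed their response from day 4 to day 6, against 728.

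Of the 48 genes named from the lists, normexp lost 27 calls and turned 1, the value table lost 4, quantile normalization and no filter on dim probes lost 3 each, and fits without 1 array of day 6 lost 6 or 7. Of all genes, normexp called 5, 1698 and 2917 at day 2, 4 and 6, no filter on dim probes 1365 at day 2, each slide alone 6 at day 2, and the fits without 1 array 1083 to 2003, 5929 to 8697 and 7723 to 10233. From day 2 to day 4 the responses of 2940 genes changed, against 23 with normexp, 1855 with no filter on dim probes, and from day 4 to day 6 728, against 0 with normexp and 277 with no filter; leaving out 1 array gave 1474 to 2795 and 200 to 867. Median scaling moved the median change of all genes from -0.05 to -0.19 at day 4 and from -0.14 to -0.23 at day 6. Normexp gave Pdgfra 0.12 at day 6, and the mean of a gene's probes gave E2f6 -0.38.

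With the scanner files' attachments, 0 of the 9 genes were higher at day 4 or day 6, 0 lower at day 6, and 0 changed their response at either step; of all genes 0 passed in any of these comparisons. Signs turned for Ino80, at 0.12, 0.16 and 0.19 at day 2, 4 and 6. At day 6 they turned for Stra8 (0.032), Ddx4 (-0.11), Mael (-0.062), Tdrd1 (-0.0011), Tex101 (-0.16), Ifitm1 (0.17), Kit (0.45), Nanos3 (0.094), Tdrd7 (-0.11), Tdrd9 (-0.45), Piwil4 (0.27), Spo11 (-0.21), Hormad2 (0.31), Rhox5 (0.017), Rhox13 (0.059), Yaf2 (-0.16), E2f6 (-0.063), L3mbtl2 (0.17), Dnmt3a (0.12), Tfdp2 (0.035), Rdh10 (-0.044), Aldh1a3 (-0.35), Rara (0.33), Rarg (0.37), Zp3 (0.11), Brdt (-0.33), Taf7l (-0.15), Ldhc (0.051), Esx1 (-0.048), Hand1 (-0.21), Col1a1 (-0.23), Dcn (-0.44), S100a4 (-0.32), Vim (0.018), Pdgfra (0.19), Nanog (0.35), Esrrb (0.51), Klf4 (0.22). The change in response turned for Stra8 (0.39), Ddx4 (-0.33), Tdrd1 (-0.39), Rhox6 (-0.81) from day 2 to day 4 and for Stra8 (0.042) from day 4 to day 6.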
